A study of Homo sapiens with 24 samples.

Results

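The mitochondrial ribosomal protein genes were followed as one set in T-47D cells, an oestrogen receptor-positive breast cancer line, after transfection of microRNA mimics or a microRNA inhibitor. Members were all gene symbols of the forms MRPL plus a number or MRPS plus a number with an optional letter from A to C, with a mean of at least 1 CPM (a count scaled to the same total in every library) over the 24 libraries. Of 26364 gene symbols in the tables, 77 had such a name and 75 were members, 48 with MRPL names and 27 with MRPS names. The cells carried wild-type ESR1 (WT) or the heterozygous mutation Y537S or D538G, introduced at the endogenous locus of the oestrogen receptor gene, and each genotype was represented by 2 clones. All cells were kept in hormone-deprived medium and were collected 24 h after transfection with 10 nM of an oligonucleotide, so no library came from untransfected cells. The WT clones received a mimic control or a mimic, which was that of miR-181c-5p, miR-301b-3p or miR-331-3p. The D538G clones received the mimic control, miR-301b-3p or miR-181c-5p, and the Y537S clones received the mimic control, miR-301b-3p, miR-331-3p, an inhibitor control or a let-7f inhibitor. Each clone gave 1 poly-A RNA library per condition. A genotype difference was therefore a difference between 2 clones and 2 others, and p-values measure the spread between these clones.

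The mitochondrial ribosome is a separate ribosome inside mitochondria that translates the few messenger RNAs encoded by mitochondrial DNA, all for inner-membrane subunits of the respiratory chain and ATP synthase. Its ribosomal RNAs come from mitochondrial DNA, whereas its proteins are encoded in the nucleus, made in the cytosol and imported, so the RNA of every member passes through the nuclear transcription and cytosolic translation machinery. Some of its proteins have a bacterial homologue and others were acquired by mitochondria. Breast cancer cells that respire need this machinery to assemble their oxidative phosphorylation complexes. Among the 75 members, 50 encode proteins of the large subunit (MRPS18A and MRPS30 included despite their names) and 24 encode proteins of the small subunit. The remaining member, MRPS36, is now counted with the oxoglutarate dehydrogenase complex. By the same assignment, 45 members have a bacterial homologue and 29 are specific to mitochondria.

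The 4 transfected or inhibited microRNAs are shown because their seeds, in capitals (bases 2 to 8), decide which members hold a match. The mature sequences are from RefSeq, 5′ to 3′, and the 4 seeds differ from one another. The let-7f label named no arm and the 5p arm is printed.
hsa-miR-301b-3p: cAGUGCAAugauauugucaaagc
hsa-miR-331-3p: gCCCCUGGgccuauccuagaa
hsa-miR-181c-5p: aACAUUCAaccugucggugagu
hsa-let-7f-5p: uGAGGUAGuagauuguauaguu

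A match was the reverse complement of the seed in the annotated 3′ untranslated region of a member's canonical transcript (GENCODE, GRCh37). It was found in 13 members for miR-181c-5p, in 5 for miR-301b-3p (MRPL28, MRPL37, MRPL42, MRPL52 and MRPS11), in 4 for let-7f (MRPL42, MRPS11, MRPS25 and MRPS33) and in 2 for miR-331-3p (MRPL11 and MRPS2). The 13 were MRPL12, MRPL13, MRPL42, MRPL50, MRPS5, MRPS14, MRPS16, MRPS21, MRPS23, MRPS25, MRPS27, MRPS33 and MRPS35. The miR-181c-5p matches of the 4 members that fell with that mimic in WT cells are given in the paragraph on that mimic, with the match in capitals.

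The libraries held 31379962 to 50526442 counts (median 39878595). The luminal markers KRT8 (2220 to 5050 CPM) and GATA3 (1360 to 1710 CPM) were high in every library and ESR1 ran from 70.4 to 294 CPM. Basal KRT5 and KRT14 stayed at or under 0.355 CPM, and the defining markers of leukocytes (PTPRC, up to 0.178 CPM), endothelium (PECAM1, up to 0.119 CPM) and fibroblasts (COL1A2 and PDGFRB, up to 0.11 CPM) were near 0. Other markers of these cell types were higher. COL1A1, another fibroblast gene, lay at 47.5 to 81.2 CPM, and COL3A1 reached 4.9 CPM. Basal TP63 ran from 0.12 to 8.15 CPM, and CD68, of the leukocyte list, lay at 2.33 to 5.56 CPM. In bulk RNA, fewer cells expressing a gene and less of its RNA per cell cannot be told apart.

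All 75 members passed the filter on low counts in every comparison. Their mean levels ran from 10.97 CPM for MRPS18C to 223 CPM, with a median of 47.1 CPM. The filter of 1 CPM removed MRPS24 (0.806 CPM) and MRPS18B (0.0508 CPM), and the members nearest above it were MRPS18C and MRPL50 (14.4 CPM). The members' transcripts were short, with a median of 1260 bases against 3295 bases for 12787 genes of at least 1 CPM with a gene model, while their median GC content (48.0%, range 34.8 to 66.7%) was close to the 48.5% of those genes. Per kilobase of transcript, the highest levels were those of MRPL41 (115.5 CPM per kb), MRPL49 (110.5 CPM per kb) and MRPL24 (107.4 CPM per kb). The lowest were MRPL42 (3.63 CPM per kb), MRPL50 (4.34 CPM per kb) and MRPS18C (7.10 CPM per kb). The canonical transcript of MRPL42 is annotated with 15557 bases, 14993 of them after the stop codon. The 3 paralogues of one bacterial protein, which occupy different sites of the ribosome, differed widely in counts: MRPS18A stood at 38.4 CPM per kb, MRPS18C at 7.10 CPM per kb and MRPS18B was nearly undetected in these tables. Exons of 8 members, MRPL49, MRPS18A and MRPS18C among them, overlap a gene on the opposite strand, and whether counting used strand is not given in the sources used here. MRPS24, which the filter removed, overlaps URGCP-MRPS24 on the same strand. How counting treated shared reads is not given either, so whether the low counts of MRPS24 and MRPS18B reflect little RNA was not tested.

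The question behind the mimic controls of the 3 genotypes was what the receptor mutations change without a microRNA. Summed over the 75 members, the normalised level was higher in mutant cells than in WT cells. The 8 WT libraries lay between 3650 and 3900 CPM (median 3809), the 6 D538G libraries between 4420 and 4728 CPM (median 4609) and the 10 Y537S libraries between 4187 and 5685 CPM (median 4469). No mutant library overlapped the WT range. The 2 highest values, 5397 and 5685 CPM, were the Y537S libraries with miR-331-3p, and the other 8 Y537S libraries stayed at 4187 to 4561 CPM. With the mimic control alone, the sums were 3841 ± 76.4 CPM in WT, 4374 ± 113 CPM in Y537S and 4659 ± 91.9 CPM in D538G cells (SD, n = 2 each). The separation from WT was not particular to the members. Summed nuclear-encoded respiratory chain genes lay at 8310 to 8981 CPM in WT libraries and from 9127 CPM in mutant libraries. Summed cytosolic ribosomal protein genes overlapped, with WT values up to 29450 CPM and mutant values from 27670 CPM.

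**Figure D1:**
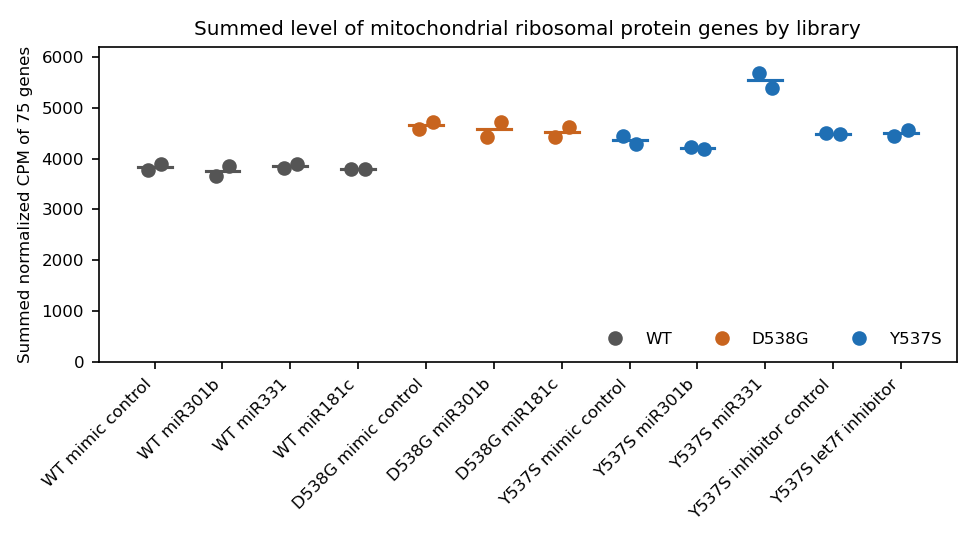
Summed normalised CPM of the 75 mitochondrial ribosomal protein genes (y axis) in each of the 24 libraries, by genotype and transfection (x axis), with points for clones and lines for the mean of 2 clones. The 8 WT libraries stay under 3900 CPM, and the Y537S libraries with miR-331-3p (5397 and 5685 CPM) stand above all the others.

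MRPS11, a small-subunit platform protein next to the messenger RNA exit, differed most by genotype. With the mimic control it was at 27.4 and 28.1 CPM in the WT clones, 56.7 and 51.4 CPM in the Y537S clones and 54.1 and 60.9 CPM in the D538G clones. Over all treatments, its lowest mutant value (49.4 CPM) lay above its highest WT value (34.1 CPM). The log2 difference from WT was 0.98 ± 0.102 (SE) in Y537S (adjusted p = 0.000703) and 1.04 ± 0.0954 in D538G cells (adjusted p = 5.85e-05). These and all other adjusted p-values (Benjamini-Hochberg, over all genes tested) are from the quasi-likelihood F test of edgeR, and both mutants were compared with the same WT libraries. MRPL46, a protein of the central protuberance, is encoded head-to-head with MRPS11 on chromosome 15 (GRCh37 chr15:89002708-89010621, minus strand, against chr15:89010684-89024007, plus strand), with 62 bases between the 2 gene models. It was at 22.4 and 24.1 CPM in WT, 31.2 and 28.7 CPM in Y537S and 35.0 and 36.5 CPM in D538G cells. The pair was thus higher in both mutants, MRPL46 by 0.38 ± 0.115 (adjusted p = 0.0449) and 0.60 ± 0.0996 (adjusted p = 0.00139) on the log2 scale.

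Between Y537S and WT cells, 20 members were higher and 2 were lower, where 16.3% of all 15106 genes tested were higher and 12.7% were lower. The median log2 difference was 0.19 for the members and -0.003 for all genes. MRPL50, a mitochondrion-specific large-subunit protein, was at 24.3 and 16.1 CPM against 11.7 and 9.82 CPM in WT (log2 difference 0.92 ± 0.212, adjusted p = 0.0171). The 2 Y537S clones differed from each other, but both lay above both WT clones. MRPS2, a small-subunit protein with a bacterial homologue, was at 49.8 and 41.6 CPM against 27.8 and 27.4 CPM (0.74 ± 0.118, adjusted p = 0.00398). The falls were MRPS14, at 40.4 and 42.9 CPM against 58.7 and 61.7 CPM (-0.51 ± 0.0963, adjusted p = 0.00769), and MRPS35, at 87.0 and 103 CPM against 125 and 134 CPM (-0.43 ± 0.103, adjusted p = 0.0193). By role, 12 of 50 large-subunit members were higher, and of the 24 small-subunit members 8 were higher and 2 lower. Of the 45 members with a bacterial homologue 15 were higher and 1 was lower, against 5 higher and 1 lower of the 29 mitochondrion-specific members. The number of calls fell most when a WT control library was left out, and less or not at all when a Y537S library was. Each such fit leaves 1 clone in a group and fewer degrees of freedom for every gene, so its count is not a trait of the members alone. Among libraries with miR-301b-3p, 13 members were higher and 2 lower in Y537S (12.0% of all genes were called higher). Among libraries with miR-331-3p, 55 were higher and 2 lower (24.8% of all genes were called higher), with a median of 0.52.

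Between D538G and WT cells, 38 members were higher and 3 lower, where 20.4% of all 14942 genes tested were higher and 18.5% lower, with a median log2 difference of 0.23. MRPS21, a small-subunit protein, was at 72.8 and 77.7 CPM against 38.8 and 44.8 CPM in WT (0.84 ± 0.0948, adjusted p = 0.00018). MRPL12, the stalk protein that contacts the translation factors, was at 95.0 and 99.9 CPM against 54.9 and 64.1 CPM (0.70 ± 0.0925, adjusted p = 0.000424). MRPS12, of the decoding centre, was at 21.3 and 22.5 CPM against 15.7 and 15.9 CPM (0.46 ± 0.118, adjusted p = 0.0135). In each of these the D538G and WT clones were apart. In Y537S cells MRPL12 was higher as well (84.8 and 78.4 CPM, 0.47 ± 0.105, adjusted p = 0.0148), while MRPS12 (19.96 and 19.1 CPM) missed the threshold with a log2 difference of 0.32 ± 0.127 (adjusted p = 0.0991). MRPL50 was also higher in D538G cells, by 0.94 ± 0.21 (adjusted p = 0.00686). The 3 falls were MRPS28 at 22.5 and 24.0 CPM against 30.4 and 35.1 CPM (-0.51 ± 0.111, adjusted p = 0.00624), MRPL52 (-0.44 ± 0.153, adjusted p = 0.0463) and MRPS35 (-0.23 ± 0.0735, adjusted p = 0.0359). In D538G cells 26 of 50 large-subunit members were higher and 1 lower, and 12 of 24 small-subunit members were higher and 2 lower. The higher members included all 3 genes of the stalk (MRPL10, MRPL11 and MRPL12) and 5 of 8 genes around the polypeptide exit tunnel. The number of calls fell more when a WT control library was left out than when a D538G library was. Each such fit leaves 1 clone in a group and fewer degrees of freedom for every gene, so its count is not a trait of the members alone. With miR-301b-3p 29 were higher and 4 lower in D538G than in WT cells (16.1% of all genes higher), and with miR-181c-5p 31 were higher and 3 lower (17.5% of all genes higher).

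Across all treatments, every Y537S library was above every WT library in 19 members and below in 0, against 12.0% and 8.56% of 13113 genes. Every D538G library was above every WT library in 31 members, and below in MRPL52 and MRPS28, against 16.3% and 12.0% of those genes. The members higher in both mutants with the mimic control numbered 17, and the shared WT libraries enter both lists. The matching number over all genes is not given here. Besides those described, the 17 included MRPL3 and MRPL17, both large-subunit proteins with a bacterial homologue. Between the mutants themselves 1 member was called, where 6.19% of all genes were. MRPS27, an RNA-binding small-subunit protein, was at 104 and 99.3 CPM in Y537S and 134 and 147 CPM in D538G cells (-0.44 ± 0.0872, adjusted p = 0.0331). The number of calls changed when 1 library was left out. Such a fit leaves 1 clone in a group and fewer degrees of freedom for every gene. For MRPL12 (-0.23, adjusted p = 0.156) and MRPS12 (-0.14, adjusted p = 0.531) the difference between mutants did not pass the test.

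**Figure D2:**
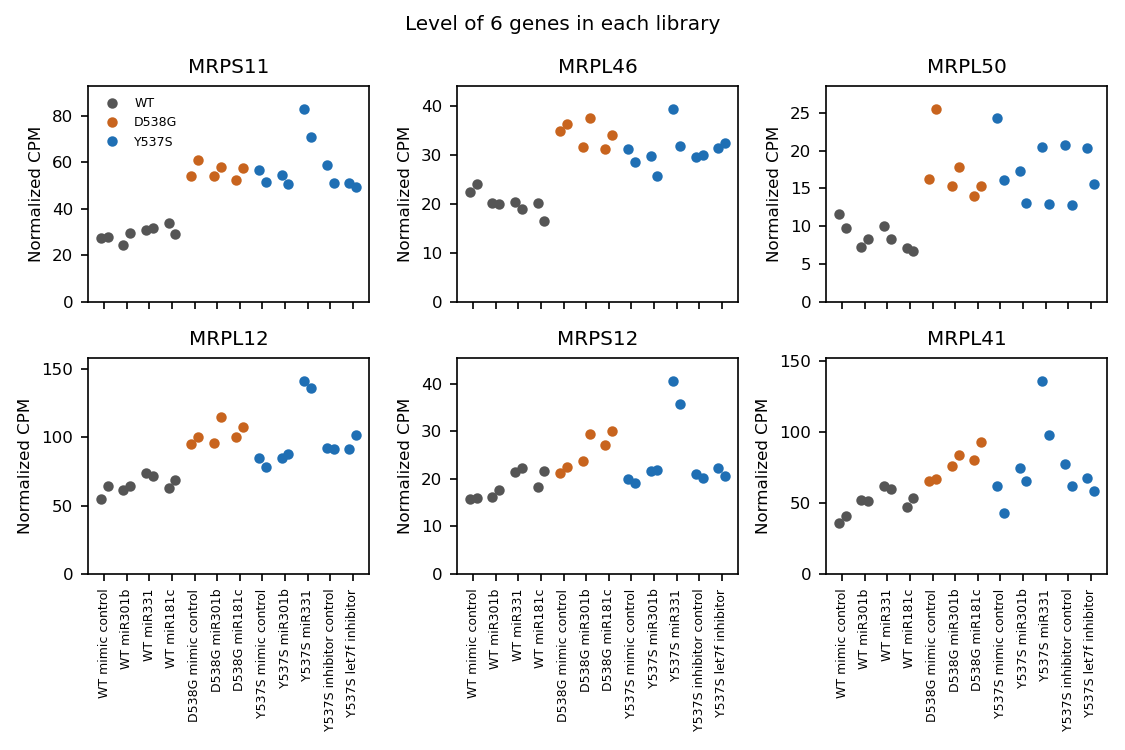
Normalised CPM (y axis, from 0) of MRPS11, MRPL46, MRPL50, MRPL12, MRPS12 and MRPL41 in the 24 libraries, by genotype and transfection (x axis), with a point for each clone. MRPS11 shows the step between genotypes, with WT values up to 34.1 CPM and mutant values from 49.4 CPM.

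Promoters of members were searched because many were higher together in the mutants. RefSeq sequence (GRCh38.p14, 250 bases before to 50 after the start) was found for 66 of the 75 members. The ETS motif CCGGAAG, searched on both strands, was present in 28 of the 66 (42.4%), against 10.7% of all 27305 promoters and 19.4% of the 9724 promoters of genes at 1 CPM or more. The YY1 motif AAGATGGCG was present in 11 (16.7%), against 1.85% and 4.11%. The NRF1 motif GCGCATGCG was present in 3 (4.55%), against 2.1% and 3.72%. The last 3 letters of the ETS motif are the first 3 of the YY1 motif, and no member promoter held the 2 joined in that way. These are descriptions of letters and not of binding. The shares were not split by whether a member was higher in the mutants, and a link between motif and rise was not tested. Of the 4 members shown next, MRPL3 was called higher in Y537S than in WT cells. MRPS18A (log2 difference 0.13, adjusted p = 0.455), MRPL53 (0.03, adjusted p = 0.866) and MRPL54 (0.05, adjusted p = 0.822) were not. In D538G cells MRPL3 and MRPS18A were called higher than in WT cells. The D538G call of MRPS18A (45.3 and 42.4 CPM against 34.5 and 37.1 CPM) was lost with DESeq2 and with the GC correction. MRPL53 was at 20.6 and 20.4 CPM in D538G against 21.4 and 19.9 CPM in WT controls. MRPL54 was at 16.1 and 15.6 CPM against 15.8 and 16.9 CPM. The 29 bases around the ETS motif, in capitals, are shown for 4 members described here, in the direction of the gene, and in MRPL54 the motif reads on the other strand.
MRPL3, chr3:131502986-131503014, minus strand: tgtaaaacgcaCCGGAAGtgggtccggcg
MRPL53, chr2:74472735-74472763, minus strand: gcagccggcggCCGGAAGtctatcccgca
MRPL54, chr19:3762650-3762678, plus strand: gccactgacgtCTTCCGGaaacgtgcact
MRPS18A, chr6:43687805-43687833, minus strand: ggcgctacgttCCGGAAGcggaaatggac

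Among the 8 treatments, the miR-331-3p mimic in Y537S cells changed the most members. It raised 35 and lowered 2, where 17.2% of all 14877 genes tested rose and 15.8% fell, and the median log2 change was 0.37 against -0.01 for all genes. The summed level rose in both clones, by 0.352 and 0.33 on the log2 scale. MRPL41, a mitochondrion-specific large-subunit protein (GRCh37 chr9:140446331-140447007, plus strand), went from 62.4 and 42.8 CPM to 136 and 97.7 CPM (1.17 ± 0.23, adjusted p = 0.0164). MRPL54, also mitochondrion-specific, went from 18.7 and 14.95 CPM to 36.4 and 31.2 CPM (1.03 ± 0.159, adjusted p = 0.00949). MRPL28, with a bacterial homologue, went from 49.7 and 43.3 CPM to 95.4 and 88.6 CPM (1.00 ± 0.107, adjusted p = 0.00618). For each of the 3 the libraries with the mimic and with its control did not overlap. MRPS12 rose from 19.96 and 19.1 CPM to 40.6 and 35.7 CPM (0.98 ± 0.121, adjusted p = 0.00681). MRPL12 rose from 84.8 and 78.4 CPM to 141 and 136 CPM (0.78 ± 0.0943, adjusted p = 0.00665), so the values with the mimic were the highest of this gene in any library.

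The rise in Y537S cells covered 27 of the 50 large-subunit members, with a median of 0.42, and 8 of the 24 small-subunit members, with a median of 0.21. It included the 3 stalk genes, 4 of 8 genes of the exit tunnel and 2 of 4 of the central protuberance. By origin, 20 of 45 members with a bacterial homologue and 15 of 29 mitochondrion-specific members rose. The 2 falls were in large-subunit members, MRPL35 from 42.5 and 41.6 CPM to 27.4 and 32.2 CPM (-0.48 ± 0.123, adjusted p = 0.0339) and MRPL42 from 68.0 and 74.4 CPM to 51.1 and 51.8 CPM (-0.45 ± 0.0989, adjusted p = 0.0216). Both members with a miR-331-3p seed match rose, MRPL11 by 0.59 ± 0.106 (adjusted p = 0.0134) and MRPS2 by 0.51 ± 0.126 (adjusted p = 0.0301). When the clone was a block, 49 members rose and 8 fell (60.7% of all genes were called). Leaving out 1 library lowered the number of calls, except for clone 2 with the mimic. Each such fit leaves 1 clone in a group and fewer degrees of freedom for every gene, so its count is not a trait of the members alone.

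In WT cells the same mimic raised 18 members and lowered 6, where 14.2% of all 15140 genes rose and 10.6% fell, and the members' median log2 change was -0.03. The summed level was 3841 ± 76.4 CPM with the control and 3856 ± 61.5 CPM with the mimic (SD, n = 2 each). MRPL41 rose most, from 35.7 and 40.8 CPM to 61.7 and 60.2 CPM (0.70 ± 0.0821, adjusted p = 0.000344), followed by the mitochondrion-specific large-subunit members MRPL53 (0.57 ± 0.0924, adjusted p = 0.00167) and MRPL54 (0.53 ± 0.101, adjusted p = 0.00377). MRPS12 rose from 15.7 and 15.9 CPM to 21.4 and 22.3 CPM (0.49 ± 0.101, adjusted p = 0.00569). MRPL12 rose from 54.9 and 64.1 CPM to 73.6 and 71.8 CPM (0.31 ± 0.0812, adjusted p = 0.0171). The largest fall was again that of MRPL35, from 28.9 and 29.6 CPM to 18.2 and 20.9 CPM (-0.56 ± 0.101, adjusted p = 0.00285), followed by the small-subunit members MRPS9, from 41.1 and 42.2 CPM to 33.6 and 32.8 CPM (-0.30 ± 0.0782, adjusted p = 0.0171), and MRPS33, from 36.97 and 33.4 CPM to 27.3 and 29.4 CPM (-0.29 ± 0.0905, adjusted p = 0.0415). All 18 members that rose in WT cells also rose in Y537S cells, in comparisons that share no library. The matching overlap over all genes is not given here, so this is not read as a trait of the members. Leaving out any 1 library lowered the number of calls. Each such fit leaves 1 clone in a group and fewer degrees of freedom for every gene, so its count is not a trait of the members alone.

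GC content moved with these changes. In Y537S cells 31 of the 38 members of higher GC rose with miR-331-3p, with a median of 0.62, against 4 of the 37 members of lower GC, with a median of 0.06 and 2 falls. In WT cells 18 of the 38 rose, while 6 of the 37 fell. Across the 75 members Spearman's rho between GC content and log2 change was 0.84 in Y537S and 0.77 in WT cells, and across all genes it was 0.49 and 0.6. The trend was not particular to miR-331-3p. Across the members rho was 0.64, 0.68 and 0.8 with miR-301b-3p in Y537S, D538G and WT cells. With miR-181c-5p it was 0.69 in D538G and 0.71 in WT cells. Between the 2 control oligonucleotides it was 0.51, and with the let-7f inhibitor -0.11. These are descriptions across genes that share libraries. After the GC trend over all genes was removed, 49 members rose and 0 fell in Y537S cells, with a median of 0.50 where the correction moved that of all genes from -0.01 to 0.19. MRPL41 (0.84), MRPS12 (0.77) and MRPL12 (0.50) kept a positive value there, and MRPL42 (0.16) and MRPL35 (0.04) turned positive. In WT cells the same correction left 3 rises and no fall, and MRPL12 turned from 0.31 to -0.17 and MRPL41 went from 0.70 to 0.12. Shares of all genes called with the correction are not given here, so its counts are not a result about the members alone.

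**Figure D3:**
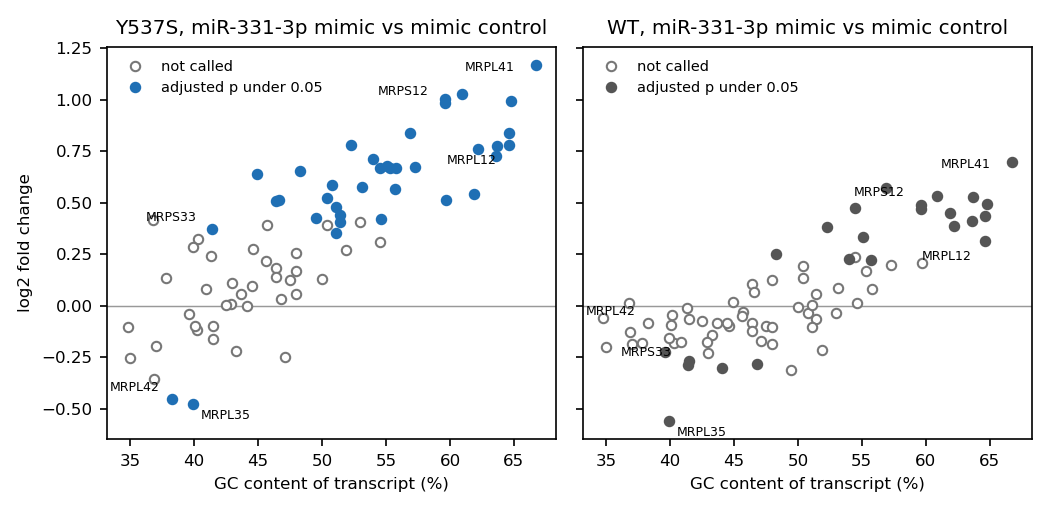
Log2 fold change with the miR-331-3p mimic (y axis) against GC content of the transcript in percent (x axis) for the 75 members, in Y537S (left) and WT cells (right), filled where the adjusted p was under 0.05. Values climb with GC content in both panels, and the Y537S panel lies higher, with 35 rises against 18.

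The difference between the 2 responses was tested directly. In 12 members the change with miR-331-3p was higher in Y537S than in WT cells, and in 0 it was lower, where 3.47% of all 15666 genes were called higher and 6.47% lower. The members' median difference was 0.31 on the log2 scale against -0.03 for all genes, and 37 members were past an unadjusted p of 0.05. The smallest p-values were those of MRPL49, a mitochondrion-specific large-subunit protein (0.48 ± 0.0888, adjusted p = 0.0159), of MRPL11 in the stalk base (0.61 ± 0.127, adjusted p = 0.0247) and of MRPS33 (0.64 ± 0.135, adjusted p = 0.0251). MRPL11 went from 66.6 and 65.5 CPM to 105 and 91.1 CPM in Y537S cells, and from 54.7 and 56.9 CPM to 53.2 and 53.9 CPM in WT cells. MRPS33, which fell in WT cells, went from 29.8 and 29.0 CPM to 36.8 and 38.3 CPM in Y537S cells. MRPL12 (0.45 ± 0.129, adjusted p = 0.0607) and MRPS12 (0.48 ± 0.152, adjusted p = 0.0822) missed the threshold, and with the clone as a block they passed it (adjusted p = 0.000695 and 0.0074). A fit with the clone as a block called 41 members higher and 1 lower (34.1% of all genes were called). With the GC correction 29 were called, where that correction moved the median of all genes to 0.16. The share of all genes called with it is not given here, so the 29 are not a result about the members alone. Most of the 12 calls were lost when 1 library was left out, in fits that leave 1 clone in a group and fewer degrees of freedom for every gene. There were 0 calls without clone D4 of the WT control or without either WT clone with the mimic, 1 without clone D1 of the WT control, 3 and 2 without clones 1 and 2 of the Y537S control, and 4 and 13 without clones 1 and 2 of Y537S with the mimic.

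**Figure D4:**
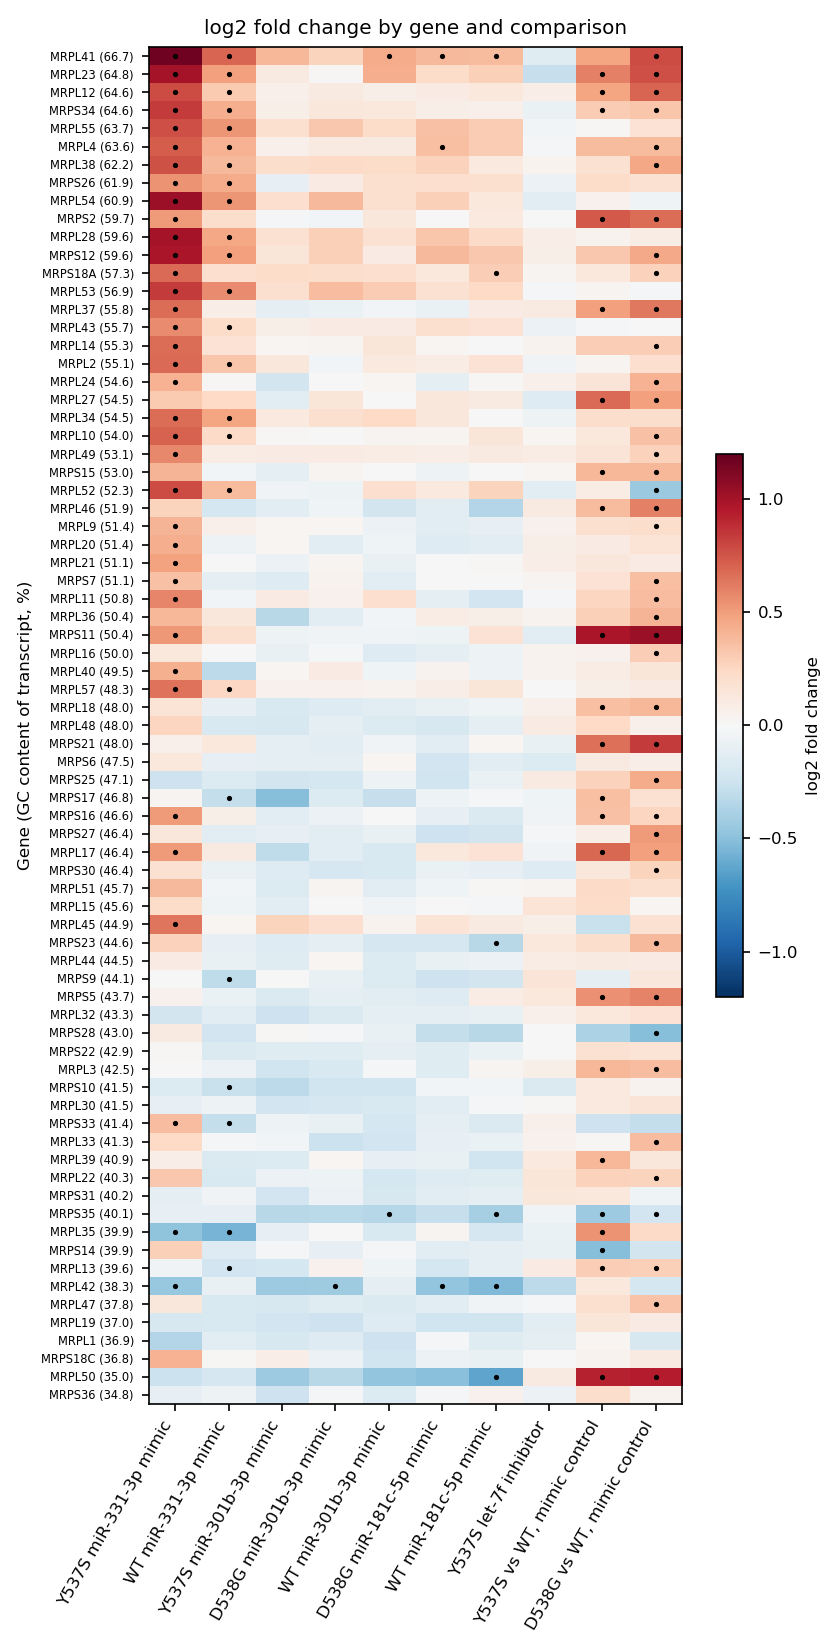
Log2 fold change (colour) of the 75 members (rows, from high to low GC content) in the 8 treatment comparisons and the 2 comparisons of a mutant with WT (columns), with a dot where the adjusted p was under 0.05. The miR-331-3p column of Y537S cells holds the most rises (35 of 75), and the columns of the mutants against WT are mostly positive.

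The miR-181c-5p mimic lowered 4 members and raised 2 in WT cells, where 16.4% of all genes changed. All 4 that fell hold a miR-181c-5p seed match, which is shown here on the strand of the gene in GRCh37, with the match in capitals.
MRPL42, chr12:93899401-93899429, plus strand: gtttaaccttgTGAATGTgagaatatttt
MRPL50, chr9:104151247-104151275, minus strand: tgttatagttgTGAATGTaaatagtattc
MRPS23, chr17:55917079-55917107, minus strand: tactcactggcTGAATGTtgagctatttt
MRPS35, chr12:27909056-27909084, plus strand: cataacgacctTGAATGTaattggagtaa
MRPL42 and MRPL50 are mitochondrion-specific proteins of the large subunit, and MRPS23 and MRPS35 are mitochondrion-specific proteins of the small subunit. MRPL42 went from 69.2 and 62.3 CPM to 44.6 and 47.2 CPM (-0.53 ± 0.0874, adjusted p = 0.00342). MRPL50 went from 11.7 and 9.82 CPM to 7.19 and 6.78 CPM (-0.64 ± 0.169, adjusted p = 0.0292). MRPS35 went from 125 and 134 CPM to 92.5 and 106 CPM (-0.40 ± 0.0871, adjusted p = 0.0133), and MRPS23 from 56.9 and 53.6 CPM to 43.0 and 45.8 CPM (-0.33 ± 0.0853, adjusted p = 0.0266). In all 4 the libraries with the mimic lay below both controls. After the GC correction MRPL42 kept its call (-0.30, adjusted p = 0.0363), while MRPL50 (-0.33, adjusted p = 0.268), MRPS35 (-0.20, adjusted p = 0.24) and MRPS23 (-0.21, adjusted p = 0.171) did not. The fit of all 12 conditions also called MRPL42 and not the other 3 (adjusted p = 0.174, 0.0616 and 0.0566 in the same order).

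Of the 13 members with a match, 4 fell in WT cells, with a median log2 change of -0.18, against 0 of the 62 without a match, whose median was 0.01. Among all genes, 749 of 2805 with a match fell (26.7%) and 458 of 10368 without one (4.42%), so the members' share was near that of all genes with a match. The 2 rises were MRPL41 (0.38 ± 0.102, adjusted p = 0.0299) and MRPS18A (0.30 ± 0.0891, adjusted p = 0.0454), and neither holds a match. After the GC correction MRPL41 was at -0.01 and MRPS18A at 0.13, and neither was called. MRPL12 (0.13 ± 0.0951, adjusted p = 0.41) and MRPS12 (0.33 ± 0.125, adjusted p = 0.107, or 0.037 under the clone block) missed the threshold. MRPL12 holds a match, and so do MRPS21 (0.03) and MRPS5 (0.09), which were also positive in WT cells. The other members with a match were negative there. Under the clone block 6 members rose and 11 fell in WT cells (27.9% of all genes were called). Of these falls, 5 were in members without a match. Without either clone of the WT control 2 members were called.

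In D538G cells the mimic lowered 1 member and raised 2, where 9.52% of all genes changed. MRPL42 fell from 54.9 and 59.9 CPM to 40.0 and 42.6 CPM (-0.47 ± 0.0898, adjusted p = 0.0139). This call was also lost with the GC correction (-0.30, adjusted p = 0.153), though not with the block and the correction in 1 fit (adjusted p = 0.00139). The rises were MRPL41 (0.39 ± 0.0905, adjusted p = 0.0271, and -0.04 after the GC correction) and MRPL4, a protein that lines the exit tunnel (0.36 ± 0.0975, adjusted p = 0.0453, and 0.02 after the correction). MRPS35 (-0.28 ± 0.0779, adjusted p = 0.0535), MRPL50 (-0.50 ± 0.192, adjusted p = 0.136) and MRPS23 (-0.20 ± 0.08, adjusted p = 0.151) missed the threshold without the block and passed it with the block (adjusted p = 0.000241, 0.000593 and 0.0254). MRPS12 did the same in the upward direction (0.39 ± 0.111, adjusted p = 0.0559, or 0.00125 with the block), and MRPL12 passed in neither fit (0.10 ± 0.079, adjusted p = 0.482). With the block 8 members rose and 11 fell (29.3% of all genes were called), and 7 of the 11 falls were in members with a match. The number of calls fell without clone C2 of either condition and rose without clone A5 of the control. Such fits leave 1 clone in a group and fewer degrees of freedom for every gene. Members with a match had a median of -0.20 and those without -0.03. Among all genes 14.6% with a match fell and 1.62% without. The responses of D538G and WT cells to miR-181c-5p differed in 0 members by edgeR and by DESeq2, also at an unadjusted p of 0.05, with 0.00646% of all genes called.

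**Figure D5:**
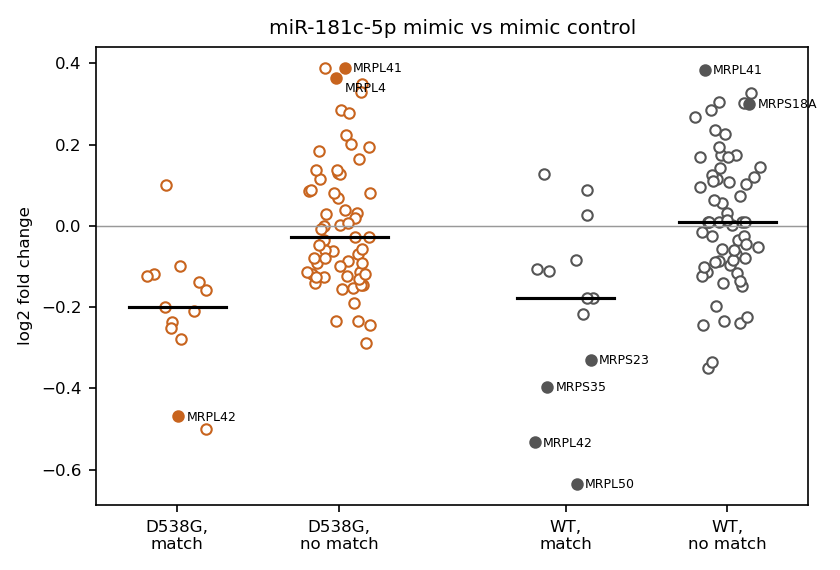
Log2 fold change with the miR-181c-5p mimic in WT and D538G cells for the 75 members, with members that hold a seed match in the 3′ untranslated region set apart from those that do not (points are genes, filled where the adjusted p was under 0.05, and lines are medians). The 13 members with a match have medians of -0.18 in WT and -0.20 in D538G cells, against 0.01 and -0.03 for the other 62.

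The miR-301b-3p mimic changed few members. In D538G cells it lowered 1, where 11.8% of all genes changed, and that member was MRPL42, from 54.9 and 59.9 CPM to 43.4 and 42.2 CPM (-0.43 ± 0.094, adjusted p = 0.0209). The annotated 3′ untranslated region of MRPL42 is long, with 14993 bases, and also holds a match of miR-181c-5p and of let-7f. MRPL42 fell with miR-331-3p in Y537S cells too, although it holds no match of that seed. MRPL42 holds 2 matches of the miR-301b-3p seed, both on the plus strand of chromosome 12 in GRCh37.
MRPL42, chr12:93897216-93897244: gcacaatcacaTTGCACTgcaacctcaat
MRPL42, chr12:93903362-93903390: caatcaggtgtTTGCACTaagttcagcat
In Y537S cells MRPL42 went from 68.0 and 74.4 CPM to 55.6 and 51.2 CPM (-0.44 ± 0.1, adjusted p = 0.0723, or 2.29e-07 under the clone block). In WT cells it was at 69.2 and 62.3 CPM with the control and 64.5 and 56.5 CPM with the mimic (-0.12 ± 0.1, adjusted p = 0.481). The other 4 members with a match did not pass the test in any genotype without the block. Of these, MRPL28 passed in D538G cells with the block, in the upward direction (0.28, adjusted p = 0.00427, against 0.12 without it). The call of MRPL42 in D538G cells was lost with the GC correction (-0.16, adjusted p = 0.444, or 0.108 with the block as well). It was also lost without clone C2 of either condition, in fits that leave 1 clone in a group and fewer degrees of freedom for every gene.

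In WT cells miR-301b-3p raised MRPL41 (0.44 ± 0.0973, adjusted p = 0.032) and lowered MRPS35 (-0.34 ± 0.0811, adjusted p = 0.0387), where 8.5% of all genes changed, and the rise of MRPL41 became -0.02 after the GC correction. MRPS35 was not called with that correction either (-0.19, adjusted p = 0.327), though it was with the block as well (adjusted p = 0.00251). In the fit of all 12 conditions neither was called (adjusted p = 0.104 and 0.119). The number of calls changed when 1 library was left out. Such a fit leaves 1 clone in a group and fewer degrees of freedom for every gene. In Y537S cells edgeR called 0 members, where 3.57% of all genes changed, with 10 members past an unadjusted p of 0.05 and 2 called by DESeq2. With the clone as a block, 4 members rose and 17 fell in Y537S (38.4% of all genes called), 9 rose and 9 fell in D538G (33.3%) and 5 rose and 7 fell in WT cells (28.2%). The largest changes in Y537S cells were then MRPL41 (0.41 ± 0.0756, adjusted p = 1.73e-06) and the small-subunit member MRPS17 (-0.52 ± 0.0935, adjusted p = 1.13e-06), which went from 39.1 and 36.2 CPM to 29.5 and 24.1 CPM. They were followed by rises of MRPL45 (0.27) and MRPS18A (0.22) and falls of MRPL42 (-0.44) and MRPL50 (-0.42). MRPL12 changed by 0.06 in Y537S, 0.11 in D538G and 0.07 in WT cells with this mimic and MRPS12 by 0.14, 0.28 and 0.10, of which the block called only that of MRPS12 in D538G cells (adjusted p = 0.0276). The responses to miR-301b-3p differed from that of WT cells in 0 members in Y537S (0.00632% of all genes called) and in 0 in D538G cells (0.0064%), by edgeR and DESeq2 and also at an unadjusted p of 0.05.

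The let-7f inhibitor left the set near its control. The summed level was 4494 ± 13.4 CPM with the inhibitor control and 4502 ± 84.2 CPM with the let-7f inhibitor (SD, n = 2 each). No gene of any kind passed edgeR's test (0.0% of all genes), 1 member was past an unadjusted p of 0.05 and DESeq2 called 0 members. Under the clone block 1 member rose and 2 fell, where 11.2% of all genes were called. They were MRPL15, a large-subunit protein (0.17 ± 0.0436, adjusted p = 0.0161), MRPL42 (-0.31 ± 0.0558, adjusted p = 0.000839) and MRPS10, a small-subunit protein (-0.17, adjusted p = 0.0309). MRPL12 (0.08) and MRPS12 (0.07) were called in neither fit. MRPL42, which holds a let-7f match, was at 69.7 and 70.9 CPM with the control and 57 and 55.7 CPM with the inhibitor, so it fell in both clones.

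The 2 control oligonucleotides were compared in Y537S cells as a background for these changes. No gene passed edgeR's test (0.0% of all genes), 4 members were past an unadjusted p of 0.05 and DESeq2 called 0. With the clone as a block the inhibitor control was higher than the mimic control in 9 members and lower in 2 (16.7% of all genes called). MRPL41 led the 9 with a log2 difference of 0.41 ± 0.0678 (adjusted p = 5.29e-05), from 62.4 and 42.8 CPM to 77.8 and 62.0 CPM. MRPL54 (0.37, adjusted p = 0.00721) and MRPL45 (0.31, adjusted p = 0.000836) followed, and the 2 lower members were MRPL50 (-0.29, adjusted p = 0.0341) and MRPL32, a large-subunit protein with a bacterial homologue (-0.19, adjusted p = 0.0477). MRPL12 (0.15) and MRPS12 (0.07) were called in neither fit. The 0.41 by which MRPL41 differed between the 2 controls was close to its rises with miR-301b-3p and miR-181c-5p.

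Over the 8 treatments, 31 members were called in none, 21 in 1, 20 in 2 and 3 in more than 2. Those called in none were 41.3% of the members, against 46.5% of 14071 genes tested in all 8, and those called in more than 2 were 4.0%, against 15.7%. Under the clone block 5 members were called in none (6.67%, against 17.3% of the genes) and 27 in more than 2 (36.0%, against 47.5%). Without the block, the 3 in more than 2 were MRPL41 (5 treatments, 7 under the block), MRPL42 (4 treatments, 6 under the block) and MRPL4 (3 treatments). MRPL41, whose transcript has the highest GC content of the set (66.7%), rose in each of its 5. MRPL42 fell in each of its 4. Treatments of one genotype share its mimic control libraries, so these counts are not independent of one another.

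Other genes of mitochondrial translation were counted alongside. As a background, miR-331-3p raised 17.2% of all genes and lowered 15.8% in Y537S cells, and raised 14.2% and lowered 10.6% in WT cells. With the mimic control, 20.4% of all genes were higher and 18.5% lower in D538G than in WT cells. With miR-331-3p in Y537S cells, 2 of 6 further mitoribosome proteins rose (AURKAIP1 by 0.98 ± 0.115 and GADD45GIP1 by 0.81 ± 0.125). Of 25 genes for ribosome assembly and ribosomal RNA modification 7 rose and 2 fell, led by NGRN (1.08 ± 0.104) and TRUB2 (1.06 ± 0.105), with MTERF3 falling (-0.72 ± 0.13). Of 13 translation factors 4 rose, among them the elongation factor TUFM (0.71 ± 0.0902), while the list's median was -0.17. Of 16 mitochondrial aminoacyl-tRNA synthetases 5 rose. Of 14 genes for mitochondrial RNA synthesis and DNA maintenance 1 rose and 4 fell, with MTERF1 (-0.96 ± 0.219) and POLG2 (-0.93 ± 0.189) falling most. In WT cells with this mimic the same lists had 2 rises, 5 rises, 2 falls, 1 rise with 2 falls, and 2 rises with 3 falls. POLRMT, the mitochondrial RNA polymerase, rose by 0.73 ± 0.088. In D538G against WT cells 11 of 25 assembly genes were higher and 2 lower, and 5 of 14 genes for RNA synthesis and DNA maintenance were higher, led by the mitochondrial DNA polymerase POLG (0.89). METTL17, of the assembly list (-0.85 ± 0.125), and OXA1L, of the translation factor list (-0.85 ± 0.0788), were lower. CARS2, of the synthetase list, was higher (0.89 ± 0.0932). In Y537S against WT cells 3 of 25 assembly genes and 4 of 14 genes for RNA synthesis and DNA maintenance were higher, again with POLG (0.74). There 16.3% of all genes were higher, so the share of assembly genes was below that of all genes.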

How the data were processed

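The authors aligned poly-A RNA-seq reads to hg19 with HISAT2 and SAMtools and deposited raw counts per gene, made with featureCounts (Subread) on UCSC Known Genes, while versions, strand setting and treatment of shared reads are not given in the sources used here. Groups followed the labels, and the clone came from the column heading. Counts were scaled with TMM, filtered with filterByExpr and tested with edgeR 4.0.16 (R 4.3.3) by the quasi-likelihood F test on the libraries of each comparison, with Benjamini-Hochberg adjustment over all genes and a threshold of 0.05. This code was tested on simulated counts. Alternatives were DESeq2 1.42.0, DESeq2 size factors, no filter, all 12 conditions in 1 fit, each library left out, the clone as a block and a GC correction (lowess span 0.3 on log2 CPM with a prior count of 2). Libraries of the same clone are the same cell line and deviated together (r 0.32 to 0.76 over 13113 genes), so blocked values are given where they change the call of a named member or move a count by over 1.5 times. SE is the absolute log2 change over the square root of F. GENCODE (GRCh37) supplied GC content, lengths and 3′ untranslated regions, and RefSeq supplied microRNA and promoter sequences. The members, gene lists and tests were chosen with earlier results of these data known. Named were MRPL12 and MRPS12, in each comparison the 3 largest rises and falls among called members that moved alike in both clones (from the blocked fit where the other called none), the 3 smallest p-values of a response difference, the extremes of level and members with a seed match. In the other lists some of the largest called changes were named, and not for every list and comparison. MRPL3, MRPL17, MRPL4 (as a count over treatments), MRPS23, MRPL46 and, for the response difference, the other members listed, MRPL40 among them, were chosen after their values were seen.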

Additional observations from a re-analysis of the deposited data

Results flagged for a closer look

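The change with the miR-331-3p mimic differed between Y537S and WT cells in 12 members, by the interaction term of edgeR's quasi-likelihood test, and all 12 were higher in Y537S cells. They were MRPL10, MRPL11, MRPL21, MRPL24, MRPL28, MRPL37, MRPL40, MRPL45, MRPL49, MRPS7, MRPS16 and MRPS33. For MRPL40, a protein of the central protuberance, the difference was 0.72 on the log2 scale, with 27.5 and 25.4 CPM going to 35.9 and 34.4 CPM in Y537S cells and 22.4 and 27.9 CPM going to 20.3 and 19.7 CPM in WT cells. In the same contrast 32 of 78 cytosolic ribosomal protein genes and 21 of 78 nuclear-encoded respiratory chain genes were called higher. GC content also moved with the difference, with 9 of the 12 among the 38 members of higher GC. Its part in the result was not tested beyond the GC correction, under which 29 members were called. The correction moved the median of all genes upward, and the share of all genes called with it is not given here.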

How the results depend on the processing

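Numbers of called members changed by over 1.5 times as follows. With the clone as a replicate block they were 21 (Y537S miR-301b-3p), 57 (Y537S miR-331-3p), 18 (D538G miR-301b-3p), 19 (D538G miR-181c-5p), 12 (WT miR-301b-3p), 17 (WT miR-181c-5p), 3 (let-7f inhibitor), 11 (inhibitor control against mimic control) and 42 (difference of the miR-331-3p responses). The WT miR-331-3p count under the block, 20 rises and 13 falls, and the other 3 response differences stayed within that range. Genotype comparisons could not be blocked, since a clone has 1 genotype. With both the block and the correction for GC, in the same order and with WT miR-331-3p at 12, they were 22, 71, 10, 11, 9, 11, 6, 4 and 62. The block alone called 60.7% of all genes for Y537S miR-331-3p and 34.1% for the difference of the miR-331-3p responses. The correction also moved the median of all genes upward in both, so 71 and 62 are not a result about the members alone. With the GC correction alone they were 0 (D538G miR-301b-3p), 0 (D538G miR-181c-5p), 1 (WT miR-301b-3p), 3 (WT miR-331-3p), 2 (WT miR-181c-5p), 2 (Y537S against D538G) and 29 (miR-331-3p responses). Without a filter on low counts they were 3 (D538G miR-301b-3p), 10 (D538G miR-181c-5p), 10 (WT miR-181c-5p) and 2 (Y537S against D538G). In a fit of all 12 conditions they were 6 (Y537S miR-301b-3p), 4 (D538G miR-301b-3p), 3 (WT miR-181c-5p), 8 (Y537S against D538G) and 24 (miR-331-3p responses). DESeq2 gave 2 for Y537S miR-301b-3p, 2 for D538G miR-301b-3p, 8 for D538G miR-181c-5p and 2 for Y537S against D538G. Among libraries with miR-331-3p, Y537S against WT gave 57, and among those with miR-301b-3p, Y537S against D538G gave 2. Leaving out 1 library at a time gave 22 to 37 (Y537S miR-331-3p), 12 to 20 (WT miR-331-3p), 0 to 3 (D538G and WT miR-301b-3p), 1 to 5 (D538G miR-181c-5p), 2 to 5 (WT miR-181c-5p), 6 to 31 (Y537S against WT), 22 to 38 (D538G against WT), 0 to 4 (Y537S against D538G) and 0 to 13 (miR-331-3p responses). A fit with 1 library left out has 1 clone in a group and fewer degrees of freedom for every gene. Shares of all genes are not given beside the counts of this paragraph, so these describe the settings and not a trait of the members. Which step of each alternative moved a count was not tested.

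Among named members, at least 18 values changed sign, and the 18 counted here were all with the GC correction. MRPL12 became -0.174 in WT miR-331-3p and -0.322 in WT miR-301b-3p (-0.172 and -0.32 with the block as well), and with block and correction -0.317 and -0.249 with miR-301b-3p in Y537S and D538G and -0.274 and -0.217 with miR-181c-5p in D538G and WT. MRPL41 became -0.044 in D538G miR-181c-5p, -0.019 in WT miR-301b-3p and -0.012 in WT miR-181c-5p (-0.046, -0.018 and -0.011 with the block). In Y537S miR-331-3p MRPL35 became 0.038 (0.038 with the block) and MRPL42 0.165 (0.164 with the block). Of the other values, 677 stayed on the same side of the threshold, 107 lost the call and 32 gained one. A value called in neither fit may have changed sign among the 677. With 2 clones a group, a permutation test of a single gene cannot go below p = 0.333, so the calls rest on the spread shared across genes.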

Other observations

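The genes of the cytosolic ribosome and of the respiratory chain were counted in the comparisons in which members moved. With miR-331-3p in Y537S cells 61 of 78 cytosolic ribosomal protein genes rose and 1 fell (median log2 change 0.62), and 53 of 78 nuclear-encoded respiratory chain genes rose and 3 fell (median 0.53). In WT cells the same mimic raised 27 and lowered 3 of the 78 cytosolic ribosomal protein genes, and raised 24 and lowered 4 of 77 respiratory chain genes. In D538G against WT cells 18 cytosolic ribosomal protein genes were higher and 4 lower, and 30 respiratory chain genes were higher and 4 lower. In Y537S against WT cells these counts were 15 and 1, and 13 and 2. All of these compare with the shares of all genes given with each comparison.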
